A study of Homo sapiens with 7 samples.

Results

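The matrix metalloproteases MMP1, MMP2, MMP3, MMP9 and MMP14, their inhibitors TIMP1, TIMP2, TIMP3 and RECK, and the inducer BSG were read in 7 cultures of HT1080, an established human fibrosarcoma cell line. Members were all probe sets that the array's annotation assigned to 1 of these 10 genes alone, which gave 24 of 41097 probe sets assigned to a single gene. In 4 cultures 1 compound was present for 2 h without test serum. These held 11.25 ng/ml of catechin, 2195 ng/ml of resveratrol, or 6.25 ng/ml of either epicatechin or taxifolin. A further pair of cultures held control serum or pycnogenol-positive serum at 5% for 2 h, the latter from patients given this pine bark extract. One culture was left untreated, and its labels name no medium change, time or solvent for it, so these cannot be told apart from the compound or serum in a difference from it. All 7 cultures came from cells grown with fetal bovine serum, and the labels do not say whether the exchanged medium held it too. Each group was 1 array, so the spread between replicates is unknown and no test was possible.

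Matrix metalloproteases are zinc-dependent enzymes, made as inactive proforms, that cut collagens and other proteins of the extracellular matrix. The membrane-anchored MMP14 activates the proform of the gelatinase MMP2 at the cell surface, and TIMP2 can bridge the pair. HT1080 cells are widely used in invasion assays in which this system takes part. The arrays measured RNA, so enzyme activity, secretion and proform cleavage were not measured. In a culture, fewer cells making a transcript and less of it per cell cannot be told apart.

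The start regions of MMP14, TIMP1 and TIMP3 are shown because they stand before a protease and inhibitors whose readings below stayed within 2-fold on their brightest probe sets. They are the 250 bases upstream of the start on the plus strand of GRCh38.p14, from RefSeq, at chr14:22836335-22836584 for MMP14, chrX:47582186-47582435 for TIMP1 and chr22:32801455-32801704 for TIMP3. Capitals mark GC boxes, GGGCGG, on either strand, and the AGGAAG core of ETS factors.

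MMP14: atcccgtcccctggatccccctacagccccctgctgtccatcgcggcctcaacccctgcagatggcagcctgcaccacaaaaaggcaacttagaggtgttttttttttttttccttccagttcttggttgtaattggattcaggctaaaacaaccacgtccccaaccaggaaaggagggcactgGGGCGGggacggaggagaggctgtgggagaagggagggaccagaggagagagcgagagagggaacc
TIMP1: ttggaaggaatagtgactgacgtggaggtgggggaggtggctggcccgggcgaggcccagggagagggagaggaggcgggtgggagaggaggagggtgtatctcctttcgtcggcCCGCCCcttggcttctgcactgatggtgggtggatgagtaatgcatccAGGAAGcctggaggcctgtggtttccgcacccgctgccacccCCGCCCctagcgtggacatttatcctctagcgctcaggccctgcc
TIMP3: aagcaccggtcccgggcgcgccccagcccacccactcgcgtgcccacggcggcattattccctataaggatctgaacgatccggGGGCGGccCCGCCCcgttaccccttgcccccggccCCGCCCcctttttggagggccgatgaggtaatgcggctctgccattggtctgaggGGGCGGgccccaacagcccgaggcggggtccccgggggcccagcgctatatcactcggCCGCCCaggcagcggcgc

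RefSeq start regions were at hand for 5 of the 10 genes, MMP14, TIMP1, TIMP3, RECK and BSG, 6 in all since BSG has a pair. None was at hand for MMP1, MMP2, MMP3, MMP9 or TIMP2, so MMP14 was the only protease searched. The MMP14 region held 1 GC box, the TIMP1 region 2 and the TIMP3 region 5, where 42.6% of all 35116 start regions of that length held at least 1. G and C made up 56.8%, 64.8% and 72.4% of these regions, beside a median of 58% over all. RECK and BSG also stayed within 2-fold but are not shown. The RECK region held 3 GC boxes, and the BSG pair 0 and 3. The ETS core was found once, in TIMP1, among the 3 regions shown, in 1 BSG region, and in 28.7% of all regions. The AP-1 motif TGANTCA is the classical phorbol ester element of several protease promoters. Searched on both strands, it was found in none of the 6, against 6.57% of all. Variants of these letters were not counted, and the promoters of the other 4 proteases were not searched. The NF-kB motif was found in none of the 6 either, against 1.73% of all. The TATAAA letters, also searched on both strands, were found in 1 of the 6, against 10.7% of all. That match, at the second BSG start, was on the minus strand, so the plus strand reads TTTATA there. These matches are descriptions of the letters in this window.

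The readings were deposited MAS5 signals on a linear scale, and the medians of the arrays ran from 114 to 136. Each gene was read from its brightest probe set by mean log2 signal, and 9888 of 19775 genes with a mean at or above the median gene, a signal of 269, were compared. Signals under 269 were not shown to be above background, since no detection calls were at hand. All 10 member genes and 19 of their 24 probe sets passed that level. The cells read as labelled for a mesenchymal line, with 7 of 10 mesenchymal markers above 269, vimentin (VIM) at 46701 to 50229, and a summed marker signal of 157917 to 167273. None of 8 epithelial or 6 endothelial markers passed, and their summed signals were 399 to 505 and 391 to 575. Of the blood markers listed, 6 were measured with sums of 577 to 854, and HBB alone passed, at 227 to 522.

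No member gene differed by 2-fold in any of the 8 comparisons made. Among all compared genes, 2-fold differences were rare as well, at 0.455% with catechin, 0.314% with epicatechin, 0.465% with taxifolin, 0.728% with resveratrol and 1.2% with control serum, each against the untreated array. They were 0.536% between pycnogenol-positive and control serum, 2.24% between pycnogenol-positive serum and the untreated array, and 0.324% between epicatechin and taxifolin. With 10 genes at such shares, a count of 0 is what the background share alone would give, so it sets the members apart from no other genes. At the lower line of 1.5-fold, MMP9 passed with catechin, where 3.55% of compared genes did, MMP1 and MMP9 with control serum, where 7.83% did, MMP9 with pycnogenol-positive serum against the untreated array, where 10% did, and RECK between epicatechin and taxifolin, where 3.47% did. No member passed it with epicatechin, taxifolin or resveratrol, at background shares of 2.82%, 3.3% and 4.46%, or between the sera, at 4.24%. Over all 21 pairs of arrays, MMP1 and MMP9 each reached 2-fold in 1 pair, beside 6.93% of compared genes that did so in some pair.

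**Figure D1:**
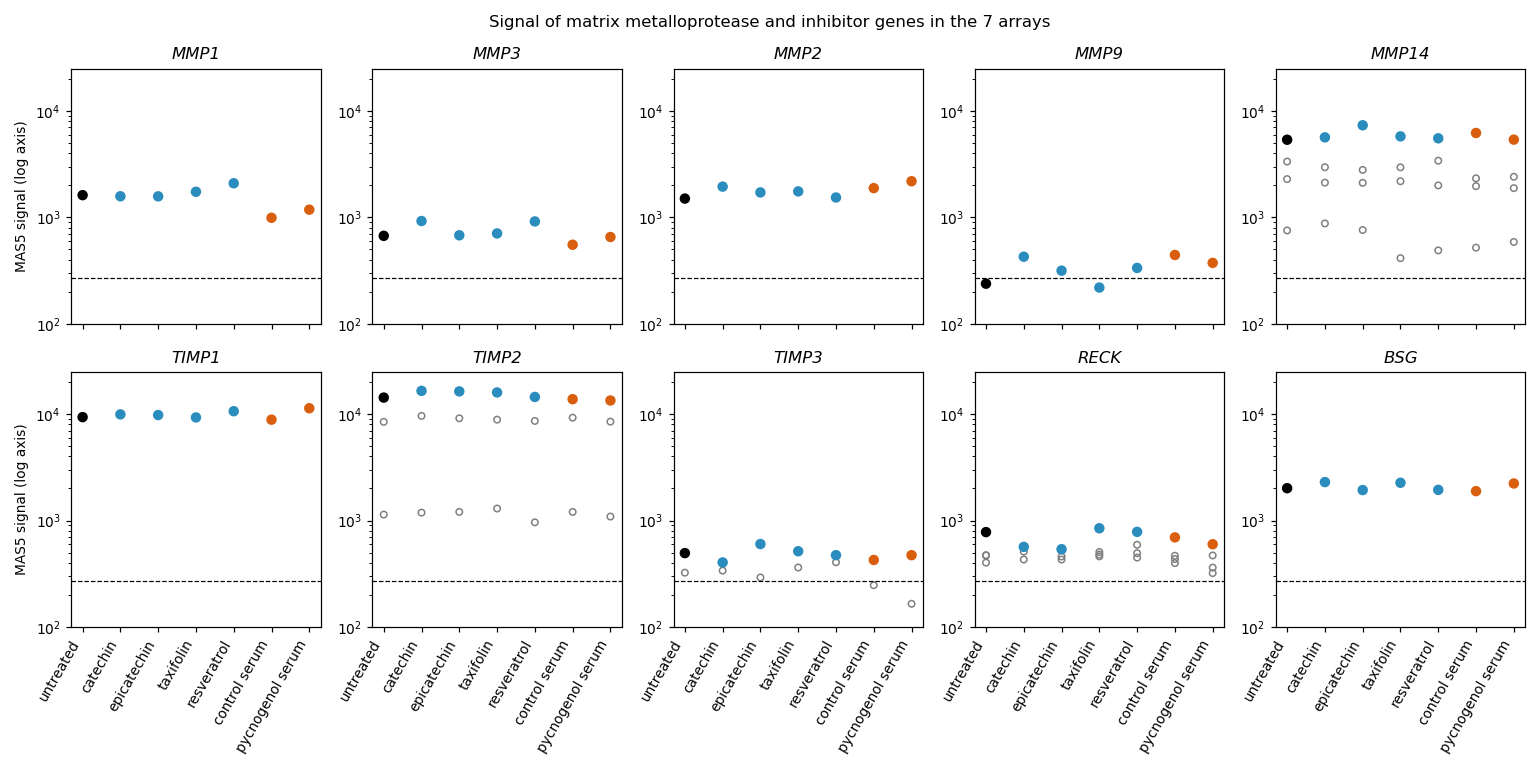
MAS5 signal on a log axis for the 10 genes in the 7 arrays, 1 array per treatment; filled points are the probe set read for the gene (black untreated, blue compounds, orange serum), open points its other probe sets above the level, and the dashed line marks 269. MMP1 was lowest in both serum cultures, at 990.0 and 1180.1, and MMP9 crossed the dashed line.

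MMP1 is the interstitial collagenase that cuts fibrillar collagens. On the probe sets read for the genes, it gave the largest mean difference between cultures with and without test serum. Its signal was 1616 untreated, 1577 with catechin, 1575 with epicatechin, 1739 with taxifolin, 2089.8 with resveratrol, 990.0 with control serum and 1180.1 with pycnogenol-positive serum. Both serum cultures lay below all 5 others, and resveratrol was highest. Control serum differed from the untreated array by -0.71 (log2), and 4.60% of compared genes differed by as much in that pair. Pycnogenol-positive serum differed from the untreated array by -0.45 and from control serum by 0.25. Resveratrol differed from the untreated array by 0.37, and the pair that reached 2-fold, control serum and resveratrol, was apart by 1.08. A single probe set read MMP1, so no second reading was at hand.

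MMP3, or stromelysin 1, can activate proforms of other metalloproteases and stands next to MMP1 on chromosome 11 with 0 protein-coding genes between them in the RefSeq table. Its signal was 670.1 untreated, 923 with catechin, 678 with epicatechin, 706 with taxifolin, 915 with resveratrol, 553 with control serum and 653 with pycnogenol-positive serum. Both serum cultures again lay lowest, but the pycnogenol-positive culture was below the untreated one by only -0.04 (log2). Under quantile normalization and centring on the array median, the serum and other cultures overlapped for MMP3, whereas MMP1 stayed below under both. The culture with catechin differed from the untreated array by 0.46 and that with resveratrol by 0.45, which 7.10% and 9.38% of compared genes matched or exceeded. MMP1 and MMP3 differed in the same direction with resveratrol, and catechin gave -0.03 for MMP1.

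MMP9, the larger gelatinase, was the member nearest to background. Its signal was 238 untreated, 426 with catechin, 315 with epicatechin, 219 with taxifolin, 335 with resveratrol, 443 with control serum and 373 with pycnogenol-positive serum. The untreated and taxifolin readings were under 269, so the size of a difference from the untreated array is uncertain. Control serum stood at 0.90 (log2) and catechin at 0.84 over the untreated array, shared or exceeded by 1.99% and 0.920% of compared genes. Control serum against taxifolin was the pair at 2-fold, 1.02 apart. Control serum against the untreated array came to 1.01 under quantile normalization and 1.07 when arrays were centred on their medians. With the mean of all 5 arrays without test serum as reference it was 0.57.

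MMP2, the smaller gelatinase, was lowest in the untreated culture. Its signal was 1501 there, 1944 with catechin, 1714 with epicatechin, 1753 with taxifolin, 1535 with resveratrol, 1882 with control serum and 2184 with pycnogenol-positive serum. All 6 treated cultures lay above the untreated one, by 0.03 to 0.54 (log2), and the difference for resveratrol, 0.03, turned to -0.06 with arrays centred on their medians. These 6 differences share the untreated array, so they are not independent. With the mean of the other arrays without test serum as reference, resveratrol gave -0.16 and the others 0.03 to 0.38. The other 2 MMP2 probe sets read 8.14 to 174 over all arrays, under the level, and take no part in the comparison. Catechin stood at 0.37 on the probe set read but at -0.41 with the mean of all 3, which gives the dim ones equal weight.

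MMP14 was read by 4 probe sets above the level, and they did not give 1 direction in any of the 8 comparisons. On the brightest, the signal was 5360.3 untreated, 5642 with catechin, 7330.3 with epicatechin, 5763 with taxifolin, 5528 with resveratrol, 6203 with control serum and 5373 with pycnogenol-positive serum. Epicatechin was highest there, 0.45 (log2) over the untreated array, but the other 3 probe sets gave -0.26, -0.12 and 0.01. Control serum stood at 0.21 on the brightest and at -0.53, -0.22 and -0.54 on the others. The dimmest, with the suffix _x_at that marks probes shared with other sequences, ran from 413 with taxifolin to 877 with catechin, a span of 1.09.

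TIMP1, a secreted inhibitor of most metalloproteases, was among the steadiest members. Its signal was 9365 untreated, 9935 with catechin, 9799 with epicatechin, 9302 with taxifolin, 10646 with resveratrol, 8862 with control serum and 11346 with pycnogenol-positive serum. The full span was 0.36 (log2), and 31.7% of compared genes had a smaller one. Its end points were the 2 serum cultures, 0.36 apart, the largest difference between them on the probe sets read for the 10 genes. The 3 flavonoid cultures lay within 0.09 of the untreated array, and resveratrol gave 0.18.

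TIMP2, which both inhibits MMP2 and helps MMP14 to activate it, varied less still. Its brightest probe set read 14290 untreated, 16532 with catechin, 16340 with epicatechin, 15974 with taxifolin, 14491 with resveratrol, 13803 with control serum and 13430 with pycnogenol-positive serum. Both serum cultures were below the other 5 on this probe set, by a mean of -0.19 (log2), but not on the other 2, where the mean difference was -0.01 on each. The flavonoid cultures lay 0.06 to 0.21 over the untreated array on all 3 probe sets. The second probe set ran from 8453 to 9619 and the dimmest from 961 to 1296.

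TIMP3, the inhibitor that stays bound to the matrix, was read by 2 of 4 probe sets above the level, and they ordered the cultures differently. The brightest gave 494 untreated, 404 with catechin, 601 with epicatechin, 514 with taxifolin, 472 with resveratrol, 426 with control serum and 472 with pycnogenol-positive serum. The second gave 323 untreated, 338 with catechin, 292 with epicatechin, 362 with taxifolin, 405 with resveratrol, 246 with control serum and 165 with pycnogenol-positive serum. Pycnogenol-positive serum thus differed from the untreated array by -0.06 (log2) on the brightest and by -0.97 on the second, whose 2 serum readings were under 269. The other 2 were dimmer, and 1 of them stayed under 269 in every array. The dimmest jumped between 44.9 with taxifolin and 405 with pycnogenol-positive serum, a span of 3.17 that rests on signals mostly under the level, and it drew the mean of all 4 probe sets to -0.79 with taxifolin and -0.87 with control serum.

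RECK, a membrane-anchored inhibitor of metalloproteases, was read by 4 of 5 probe sets above the level. The brightest, again an _x_at set, gave 778 untreated, 565 with catechin, 537 with epicatechin, 845 with taxifolin, 782 with resveratrol, 694 with control serum and 598 with pycnogenol-positive serum. Catechin and epicatechin were lowest on it, at -0.46 and -0.53 (log2) from the untreated array. The other 3 gave 0.11, 0.26 and 0.10 with catechin, and 0.15, -0.13 and 0.19 with epicatechin. With pycnogenol-positive serum all 4 lay below the untreated array, between -0.38 and -0.01. The fifth probe set read 3.95 to 49.5.

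BSG, also called basigin or EMMPRIN, is a surface glycoprotein known to induce metalloproteases in neighbouring cells and to escort lactate transporters to the membrane. Its signal was 2012 untreated, 2296 with catechin, 1931 with epicatechin, 2262 with taxifolin, 1941 with resveratrol, 1888 with control serum and 2228 with pycnogenol-positive serum. Its span of 0.28 (log2) was the narrowest of the 10 genes, and 19.7% of compared genes had a narrower one.

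**Figure D2:**
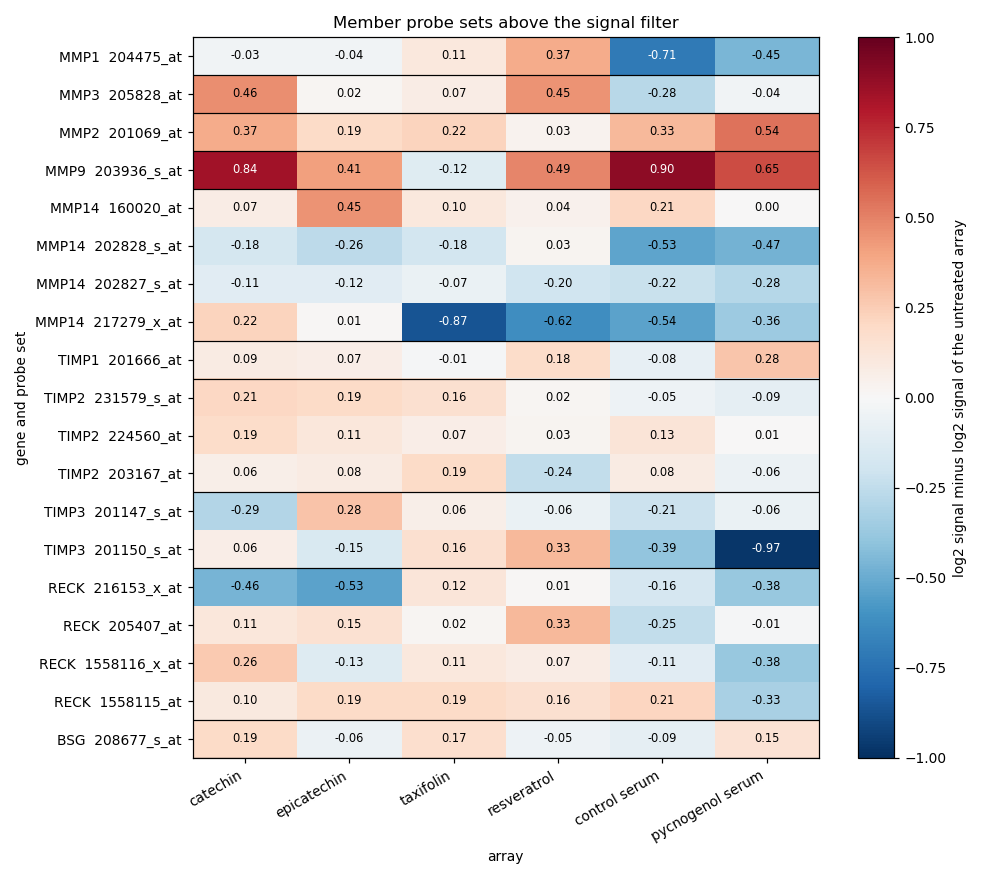
Log2 signal of each treated array minus that of the untreated array, for the 19 member probe sets above the level, with genes divided by lines and the untreated array as reference in every column. MMP14, TIMP2, TIMP3 and RECK hold probe sets of opposite sign in the same column, such as 0.21 and -0.53 for MMP14 with control serum.

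Agreement between probe sets was the one repeated reading these arrays allowed. For the 4 genes with more than 1 probe set above the level, all pointed 1 way in 10 of 32 gene and comparison pairs. These were 4 of 8 for TIMP2, 3 of 8 for TIMP3, 3 of 8 for RECK and 0 of 8 for MMP14, and the comparisons share arrays. Over all genes with 2, 3 or 4 probe sets above the level, the share was 56.1%, 35.1% and 21.8%. No member probe set above the level reached 2-fold in any comparison, where few of all 17655 such probe sets did. Against the untreated array these were 0.561% with catechin, 0.442% with epicatechin, 0.583% with taxifolin, 1.08% with resveratrol, 1.49% with control serum and 2.46% with pycnogenol-positive serum. They were 0.81% between the sera and 0.51% between epicatechin and taxifolin.

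The members went in both directions against the untreated array. Their median difference with the compounds was 0.14 (log2) with catechin, 0.13 with epicatechin, 0.11 with taxifolin and 0.04 with resveratrol, beside medians of 0.04, 0.03, 0.03 and 0.03 over all compared genes. Above 0 lay 7, 7, 8 and 8 of the 10, where the shares over all compared genes were 57.6%, 57.3%, 57.2% and 54.8%. When arrays were centred on their medians, the flavonoid medians were 0.21, 0.20 and 0.16 with 8, 9 and 9 members above 0, and the resveratrol median turned to -0.05 with 4 members above 0. These 4 comparisons share the untreated array, so their likeness is not independent.

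The members ran from -0.46 (RECK) to 0.84 (MMP9) with catechin, from -0.53 (RECK) to 0.45 (MMP14) with epicatechin, from -0.12 (MMP9) to 0.22 (MMP2) with taxifolin and from -0.06 (TIMP3) to 0.49 (MMP9) with resveratrol. The MMP9 ends rest on an untreated signal under 269, and the RECK ends on the _x_at probe set described above. The median absolute difference of the members was 0.25, 0.19, 0.11 and 0.06 in that order, against 0.14, 0.13, 0.13 and 0.15 over all compared genes. Catechin and resveratrol were given at other doses than epicatechin and taxifolin, so their values stand side by side without a comparison.

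Epicatechin and taxifolin were the only pair of compounds at the same dose and time. Both are flavonoids of pine bark, and taxifolin carries a keto group on the central ring that epicatechin lacks. Between them no member reached 2-fold, 5 members lay above 0 and 5 below beside 49.8% of compared genes above, and the median was 0.0003 (log2). On the probe sets read, the largest differences of epicatechin minus taxifolin were -0.65 for RECK and 0.53 for MMP9. The _x_at set of MMP14 gave 0.88, and of the 4 MMP14 sets 2 lay above 0 and 2 below. The RECK value was 0.13 without _x_at and _s_at probe sets, a setting that reads 1 probe set. Of the 4 RECK sets above the level, 3 lay below 0 and 1 above. Both MMP9 signals were near 269. With 1 array for each compound there is no interval for these differences, and the pair cannot be shown to act alike or otherwise.

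**Figure D3:**
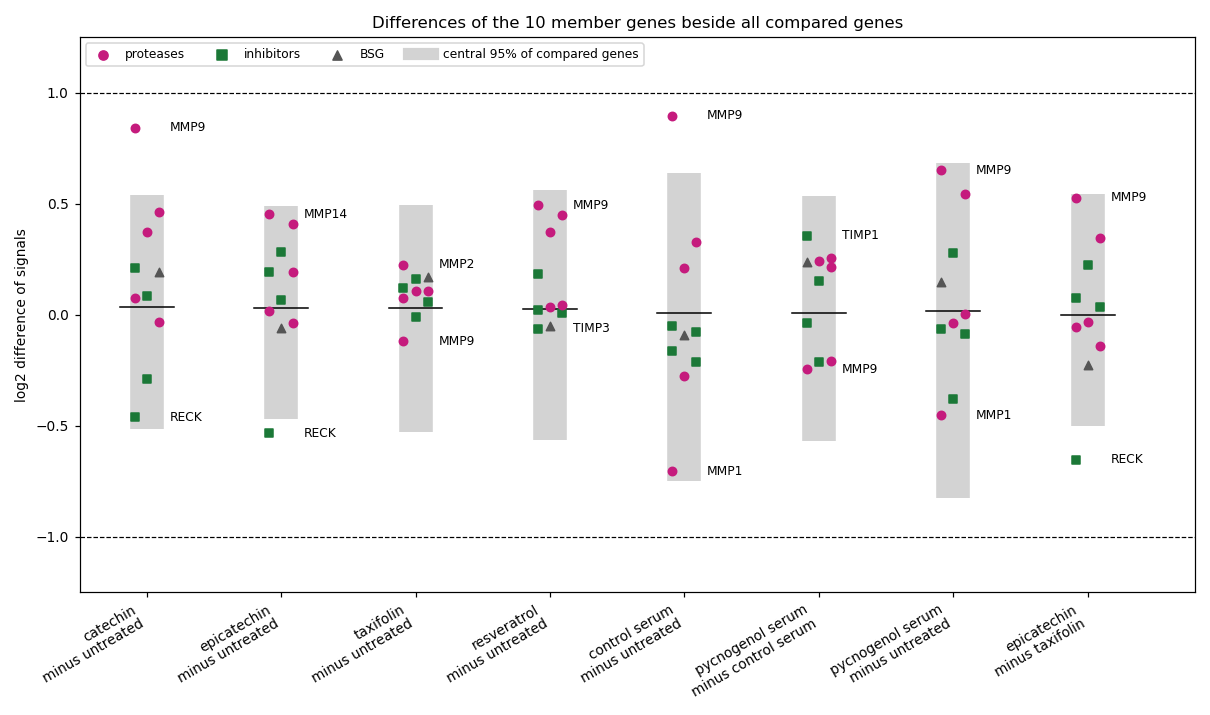
Log2 difference of signals for the 10 genes (circles proteases, squares inhibitors, triangle BSG) in the 8 comparisons, 1 array on either side; grey bars hold the central 95% of the 9888 compared genes, black ticks their median and dashed lines 2-fold. No point passes the dashed lines, MMP9 lies above the grey bar with catechin, 0.84, and with control serum, 0.90, and RECK lies below it with epicatechin, -0.53, and between epicatechin and taxifolin, -0.65.

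With control serum against the untreated array, the collagenase and stromelysin genes were lower and both gelatinase genes higher, none by 2-fold. The values were -0.71 for MMP1 and -0.28 for MMP3, and 0.33 for MMP2 and 0.90 for MMP9. In that order, 4.60%, 33.6%, 26.8% and 1.99% of compared genes differed by as much. The untreated MMP9 signal was under 269. The remaining protease, MMP14, gave 0.21 on its brightest probe set and -0.53, -0.22 and -0.54 on the others. The inhibitors TIMP1, TIMP2, TIMP3 and RECK lay between -0.21 and -0.05 on the probe sets read, but 2 other TIMP2 probe sets gave 0.13 and 0.08 and 1 of RECK gave 0.21. Above 0 lay 3 of 10 members, where 51.3% of compared genes did. The median of the members was -0.09, and it turned to 0.08 with arrays centred on their medians, a scaling that moved all compared genes by 0.17 in this pair. That scaling left 3 of 10 members below 0, among them MMP1 at -0.54, and turned TIMP1 from -0.08 to 0.09, TIMP2 from -0.05 to 0.12 and RECK from -0.16 to 0.004.

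Pycnogenol-positive serum was also set against control serum, the comparison in which both cultures held serum. MMP1, MMP3 and MMP2 were higher by 0.25, 0.24 and 0.22 (log2), TIMP1 by 0.36 and BSG by 0.24, while MMP9 lay at -0.25, MMP14 at -0.21 and RECK at -0.21. The median was 0.18 with 6 of 10 members above 0, beside 0.01 and 51.6% over all compared genes, and it turned to -0.04 with a filter at the 75th percentile, which left 3 members. RECK turned to 0.24 without _x_at and _s_at probe sets, a setting that reads 1 probe set. Of its 4 probe sets above the level, 3 lay below 0, the lowest at -0.54, and 1 above. Against the untreated array the same culture gave a median of -0.02 and 5 of 10 members above 0, beside 52.5% of compared genes, and these turned to 0.03 and 6 of 10 with quantile normalization and to 0.10 and 8 of 10 with centring. At the ends were MMP9 at 0.65, MMP2 at 0.54 and MMP1 at -0.45. These comparisons share arrays, so their values are not independent.

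Taking both serum cultures beside the 5 others, MMP1, MMP3 and TIMP2 were below in both and no member was above in both on the deposited scale. Centring on the array median left MMP1 alone below and put MMP2 above, and quantile normalization left MMP1 and TIMP2 below. With averaged probe sets, MMP1, MMP3, MMP14 and RECK were below and MMP2 above. When _x_at and _s_at probe sets were dropped, MMP1, MMP3 and RECK were below. Over all compared genes 29.6% lay outside, made up of 16.1% below and 13.5% above, so 3 of 10 is near the background share. The mean serum minus mean other difference was -0.66 (log2) for MMP1, -0.36 for MMP3 and -0.19 for TIMP2. By probe set, 7 of 19 lay below in both and none above, where over all such probe sets 27.3% lay outside, 14.8% below and 12.5% above. These 7 included 2 of MMP14, 1 of RECK and 1 of TIMP3. The TIMP3 set had a mean serum minus mean other difference of -0.76 (log2), with both serum readings under 269. The 7 come from 6 genes, and the arrays on each side hold different treatments, so they are not replicates and no test was made.

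Genes whose pattern over the 7 arrays was most like that of MMP1 were ZNF74, BTD and ZNF449, with root mean square differences of 0.10, 0.11 and 0.13 between centred log2 signals, among 684 candidates that also spanned 2-fold. ZNF74 and BTD had mean signals of 284 and 299, close to the level of 269. For MMP9 the nearest were NEXN, SMIM11 and JPT2, at 0.20, 0.21 and 0.21. The MMP9 pattern includes readings under the level.

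Of 18 other metalloprotease and TIMP genes measured, 16 were under the level, including MMP7, MMP8, MMP10, MMP11, MMP12, MMP13 and TIMP4. MMP16, a membrane-anchored relative of MMP14, and MMP28 passed it. MMP16 read 1966 untreated, 1922 with catechin, 1667 with epicatechin, 1968 with taxifolin, 1927 with resveratrol, 1183 with control serum and 774 with pycnogenol-positive serum. It was lowest in the serum cultures, by -0.73 (log2) and -1.35 from the untreated array. The latter was past 2-fold, which 2.24% of compared genes reached in that pair. MMP28 gave -0.44 and -0.26 in the same pairs.

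Among ADAM and ADAMTS proteases, relatives with a disintegrin domain, 5 of 12 passed the level. ADAM15 read 941 untreated, 464 with catechin, 633 with epicatechin, 540.5 with taxifolin, 188 with resveratrol, 591 with control serum and 175 with pycnogenol-positive serum. The untreated reading was the highest of all 7, and those with resveratrol and pycnogenol-positive serum were under the level, so the sizes of their differences are uncertain. Catechin differed from the untreated array by -1.02 (log2), where 0.455% of compared genes reached 2-fold. ADAM19 stood at 0.90 with control serum and at 1.02 with pycnogenol-positive serum, both against the untreated array. In the latter pair 2.24% of compared genes reached 2-fold. Of 9 genes for activation and clearance of metalloproteases above the level, PLAT alone passed 2-fold against the untreated array. It stood at -1.17 with control serum, where 1.2% of compared genes reached 2-fold. FURIN, the protease that removes the prodomain of MMP14, gave -0.25 with epicatechin and -0.38 with taxifolin. Larger differences in the same list were 0.44 for SPOCK1 with taxifolin and -0.88 for PCSK5 with resveratrol. THBS1 gave 0.92 with pycnogenol-positive serum against the untreated array.

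Of 15 transcription factors known to act on metalloprotease promoters and above the level, 4 comparisons gave calls at 2-fold, all lower. They were ELK1 with resveratrol at -1.16, ETV5 with control serum at -1.02, EGR1 between the sera, and ETV5 at -1.17 and EGR1 with pycnogenol-positive serum against the untreated array. The background shares at 2-fold in these comparisons were 0.728%, 1.2%, 0.536% and 2.24%. EGR1 read 462 untreated, 475 with control serum and 175 with pycnogenol-positive serum, which is under the level, so the size of its difference is uncertain. Of 14 BSG partners listed, 12 were measured and 11 passed the level. SLC16A1 and SLC16A3 had no reading here and are not covered. None of the 11 reached 2-fold in any comparison. The largest difference was -0.58 for SLC3A2, an amino acid transporter subunit, with pycnogenol-positive serum against the untreated array.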

How the data were processed

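RNA of 7 HT1080 cultures was measured on Affymetrix U133 Plus 2.0 arrays with 54675 probe sets. The deposited values are signal intensities on a linear scale, 1 per probe set, computed by the authors with MAS5 per the submitters' processing notes; the MAS5 version is not given in the sources used here. The arrays share a 2% trimmed mean of 1000.1. Symbols were brought up to date with RefSeq for GRCh38.p14; 1801 probe sets naming several genes and 11777 with no entry were left out. A floor was set at 34.9, the 25th percentile over all arrays, before taking log2. Differences are first minus second array. The number of arrays, 1 per group, limits the precision, and replicate cultures were not analysed here. The 10 genes, lists and comparisons were chosen with earlier results of these data known. Named genes were the 10 members and, from the other lists, genes past 2-fold or among the 3 with the largest difference, and the 3 nearest patterns to members spanning 2-fold. The code was tested on simulated data. Python 3.11.15, numpy, pandas, scipy, statsmodels (loess) and matplotlib were used. Alternatives changed the scaling, floor, filter, probe set choice, threshold and reference.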

Additional observations from a re-analysis of the deposited data

How the results depend on the processing

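Of 78 member medians recomputed under the alternatives, all stayed within 1 SD over compared genes of the reported value, and 9 changed sign. These were resveratrol (-0.05) and control serum (0.08) with centring, pycnogenol-positive against control serum (-0.04) with the stricter filter, and pycnogenol-positive serum against the untreated array with quantile normalization (0.03), centring (0.10), the stricter filter (0.003) and no _x_at and _s_at probe sets (0.003). The last were epicatechin minus taxifolin with quantile normalization (-0.01) and averaged probe sets (-0.03). The SDs ran from 0.24 to 0.38 and exceeded every reported member median, so staying within 1 SD is a loose bound. With no floor, a floor at the 40th percentile or no signal filter, no member value could change. All 10 genes already passed the filter and read above either floor in every array. These settings are included in the numbers given here. Of 78 counts at 2-fold with the threshold kept, 76 stayed at 0; the count with control serum was 1, MMP9, under quantile normalization and when arrays were centred on their medians, which moved compared genes by -0.09 to 0.17 (log2) over the comparisons. At 1.5-fold the count was 1 with catechin, 2 with control serum, 1 with pycnogenol-positive serum against the untreated array and 1 between epicatechin and taxifolin; at 3-fold none. The count of genes with both serum arrays outside the range of the others was 5 where a gene's probe sets were averaged. It was 1 with a stricter filter, the 75th percentile, which left 3 members. Of 700 recomputed single-gene values, 21 moved by more than that SD, with MMP2, TIMP3, RECK and MMP14 doing so where probe sets were read differently, and MMP3, MMP9 and RECK with the mean of other arrays as reference. The cause was not tested. Without _x_at and _s_at probe sets MMP9, TIMP3 and BSG had no reading. Pairwise loess was not run for the serum count, which has no pairs. No paired analysis was possible because each group is 1 array. Signals near or under 269 limit MMP9 and the dimmer TIMP3 probe sets.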
